A study of Homo sapiens with 30 samples.

Results

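Of 21268 H3K4me3 peaks counted in OCI-Ly1 cells, 2450 (11.5%) lay away from gene ends and without a peak of H3K27 acetylation (H3K27ac). They were chosen by position alone. Each lay on chromosomes 1 to 22 or X, more than 1 kb from both ends of every RefSeq gene of GRCh38, and shared no base with any peak of the H3K27ac table. Inside the body of a gene lay 1531 of them, and 919 lay outside. No read count entered the choice, although both peak tables come from the same series as the libraries whose counts are compared. The remaining peaks on these chromosomes fell into 3 classes: 5478 away from gene ends with H3K27ac, 10930 at or within 1 kb of a gene end with H3K27ac, and 2244 at or within 1 kb of a gene end without it.

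Trimethylation of histone H3 at lysine 4 (H3K4me3) is laid down mainly by SET1 and MLL complexes, is concentrated at transcription start sites and CpG islands, and is removed by the KDM5 family of Jumonji demethylases. Acetylation of lysine 27 marks active promoters and enhancers, so an H3K4me3 peak without it is commonly read as a weak, poised or inactive start site, an unannotated start, or a trace of signal. OCI-Ly1 is an established human cell line from a germinal-centre type of diffuse large B cell lymphoma. JIB-04 is a small molecule that inhibits Jumonji histone demethylases.

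The series holds 30 chromatin immunoprecipitation libraries of this line, for 4 histone marks and for input. For H3K4me3 and for H3K27ac there were 2 libraries each of cells given the vehicle dimethyl sulfoxide (DMSO), 150 nM JIB-04 or 500 nM JIB-04. The labels do not say whether the 2 libraries of a group came from separate cultures, so every p-value below measures only the spread between libraries, which may be technical. The 6 H3K4me3 libraries held between 9686420 and 12327122 counted reads in peaks, and 0.810% to 1.19% of those reads lay in the 2450 peaks.

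Although no gene end lay within 1 kb, 158 of the 2450 peaks (6.45%) overlapped a RefSeq promoter window, in each case inside a gene body. Such a window begins 250 bases before a transcript start. Overlap was counted over the whole window and not only over those 250 bases. The 250 bases before the start are shown for some of these windows as examples, from peaks with a mean of at least 50 reads per library. The peaks of LHX9, KIF7, DIXDC1 and GSN had large rises at 500 nM and that of ANK3 a fall. The peak of SATB1 had the most reads of those shown. These peaks were picked after their values were seen and are not a ranking of all peaks over such a window. LHX9 encodes a LIM homeobox transcription factor, KIF7 a kinesin of Hedgehog signalling, DIXDC1 a Wnt pathway protein, GSN the actin-severing protein gelsolin, ANK3 the membrane adaptor ankyrin-G and SATB1 a chromatin organiser of lymphocytes. Sequences are from RefSeq (GRCh38.p14), written 5′ to 3′ on the strand of the gene and ending at the base before the start, with each CG in capitals, since H3K4me3 is known to follow CG-rich DNA.
LHX9, chr1:197915824-197916073, plus strand: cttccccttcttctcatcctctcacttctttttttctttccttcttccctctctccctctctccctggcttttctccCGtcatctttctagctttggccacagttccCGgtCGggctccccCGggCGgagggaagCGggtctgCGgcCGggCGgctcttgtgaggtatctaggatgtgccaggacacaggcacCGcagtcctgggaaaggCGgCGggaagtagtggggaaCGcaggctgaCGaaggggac
KIF7, chr15:89655468-89655717, minus strand: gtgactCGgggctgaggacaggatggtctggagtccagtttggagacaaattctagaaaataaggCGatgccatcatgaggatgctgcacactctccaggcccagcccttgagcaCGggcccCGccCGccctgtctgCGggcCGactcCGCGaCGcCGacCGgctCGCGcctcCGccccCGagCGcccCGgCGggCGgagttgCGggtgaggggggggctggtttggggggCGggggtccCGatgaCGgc
DIXDC1, chr11:111977095-111977344, plus strand: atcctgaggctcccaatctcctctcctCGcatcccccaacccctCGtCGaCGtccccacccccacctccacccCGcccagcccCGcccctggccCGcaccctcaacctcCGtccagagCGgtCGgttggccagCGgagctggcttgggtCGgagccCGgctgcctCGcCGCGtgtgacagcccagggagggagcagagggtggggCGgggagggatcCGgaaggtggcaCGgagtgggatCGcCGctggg
GSN, chr9:121299410-121299659, plus strand: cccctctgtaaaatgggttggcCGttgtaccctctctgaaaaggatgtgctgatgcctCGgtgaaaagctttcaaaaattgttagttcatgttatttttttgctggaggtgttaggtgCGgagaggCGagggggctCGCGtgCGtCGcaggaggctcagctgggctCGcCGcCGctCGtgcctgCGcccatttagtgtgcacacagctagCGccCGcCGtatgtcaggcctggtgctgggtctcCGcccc
ANK3, chr10:60389876-60390125, minus strand: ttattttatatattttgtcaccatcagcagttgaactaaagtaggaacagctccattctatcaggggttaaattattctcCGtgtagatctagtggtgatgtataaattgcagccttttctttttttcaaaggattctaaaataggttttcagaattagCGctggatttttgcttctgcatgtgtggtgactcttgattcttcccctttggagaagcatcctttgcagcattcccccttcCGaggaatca
SATB1, chr3:18425340-18425589, minus strand: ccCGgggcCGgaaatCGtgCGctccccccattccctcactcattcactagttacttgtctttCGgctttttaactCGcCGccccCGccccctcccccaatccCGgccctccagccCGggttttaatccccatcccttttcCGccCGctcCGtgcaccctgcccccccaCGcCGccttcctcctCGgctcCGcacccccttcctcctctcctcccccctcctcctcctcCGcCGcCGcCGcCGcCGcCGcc

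The 250 bases shown for LHX9, GSN, ANK3 and SATB1 lay wholly inside their peaks, those of KIF7 with 236 bases and those of DIXDC1 with 164. In every window CG was counted only in the 250 bases before the start. The 4 windows of rising peaks held 14 CG pairs for LHX9, 24 for KIF7, 21 for DIXDC1 and 17 for GSN. The ANK3 window held 3. The SATB1 window, under a peak with far more reads, held 24, as many as KIF7. CG reads the same on both strands and cannot overlap itself. It occurred at least once in 94.0% of the 34961 RefSeq windows on these chromosomes and in 97.7% of the 176 windows touched by the 2450 peaks. The median number of CG per window was 11 over all windows, 17 in those 176, and 3 in the 19105 windows touched by no H3K4me3 peak. The other classes of H3K4me3 peaks had more: 18 under away peaks with H3K27ac, and 22 under gene-end peaks with or without H3K27ac. Within the 176, the median was 19.5 in the 108 windows under a peak called higher at 500 nM, 14 in the 61 under a tested peak not called, and 2.5 in the 2 under a peak called lower. These are descriptions of letters in a window, and several windows share a peak.

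The 2450 peaks were short and weak. Their median length was 493.5 bp, against 1566 bp over all 21268 peaks and 872.5 bp over the peaks away from gene ends that carried H3K27ac. The longest spanned 4788 bp. Their median count was 19.3 reads, averaged over the 6 libraries, against 295 over all peaks. Per length the gap was narrower: the median level was 3.61 CPM (counts scaled to library size) per kb of peak, against 5.50 for the away peaks with H3K27ac, 5.32 for the gene-end peaks without it and 32.2 for the gene-end peaks with it. A mean of at least 50 reads was reached by 542 of the 2450. The typical peak here therefore rests on few reads, and a change in it is measured less precisely than at a promoter.

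At 500 nM, many of these peaks gained H3K4me3 and few lost it. With edgeR's quasi-likelihood test and an adjusted p under 0.05, 858 of the 2450 peaks were called higher than in DMSO and 76 lower, that is 35.0% and 3.10%. Over all tested H3K4me3 peaks 20.7% were called higher and 18.7% lower. A change of at least 1 on the log2 scale was called upward in 514 and downward in 47, where the share over all tested peaks was 7.65% upward and 1.98% downward. Without DMSO replicate 1 the number called lower was 49. Inside gene bodies 549 of 1531 rose and 52 fell (32 without DMSO replicate 1), and outside 309 of 919 rose and 24 fell. The median log2 fold change over all 2450, from a fit with no filter on low counts, was 0.57 (inside 0.55, outside 0.60), and 79.5% of the values were above 0. The same median over all peaks was -0.0044.

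The filter on low counts left 2088 of the 2450 peaks in the test. Among these, 297 passed it only because both 500 nM libraries were high enough, and 199 of the 297 were called higher. Without them 659 peaks were called higher. Passing through the DMSO libraries alone were 18 peaks, of which 7 were called lower, leaving 69. Both 500 nM libraries lay above both DMSO libraries in 1501 of the 2450 peaks and below them in 232. Over all peaks these shares were 34.2% and 33.2%. One peak had no read in either DMSO library, and none lacked reads in both 500 nM libraries. The split of calls depends on how the libraries were scaled: with loess offsets that remove any trend with abundance, 449 of the 2450 were called higher and 186 lower, and the median fell to 0.19.

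Summed over the 1531 peaks inside genes, the DMSO libraries held 5550 and 5436 CPM, the 150 nM libraries 5678 and 5602, and the 500 nM libraries 7788 and 7583. Outside genes the sums were 2827 and 2750 in DMSO, 2834 and 2827 at 150 nM, then 3891 and 3705 at 500 nM. In both places the 2 libraries at 500 nM stood clear of the other 4. Over the 2450 together the DMSO libraries averaged 8281 ± 136 CPM, those of 150 nM 8470 ± 58.6 and those of 500 nM 11484 ± 277 (SD, n = 2 each), a ratio of 1.39 between 500 nM and DMSO. The away peaks with H3K27ac went the other way, from 104946 ± 1459 to 98621 ± 1675 CPM, a ratio of 0.94, and the gene-end peaks without H3K27ac rose by a ratio of 1.42. An exact permutation test of 2 libraries against 2 cannot give a p below 0.333, so no p is given for these sums.

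**Figure D1:**
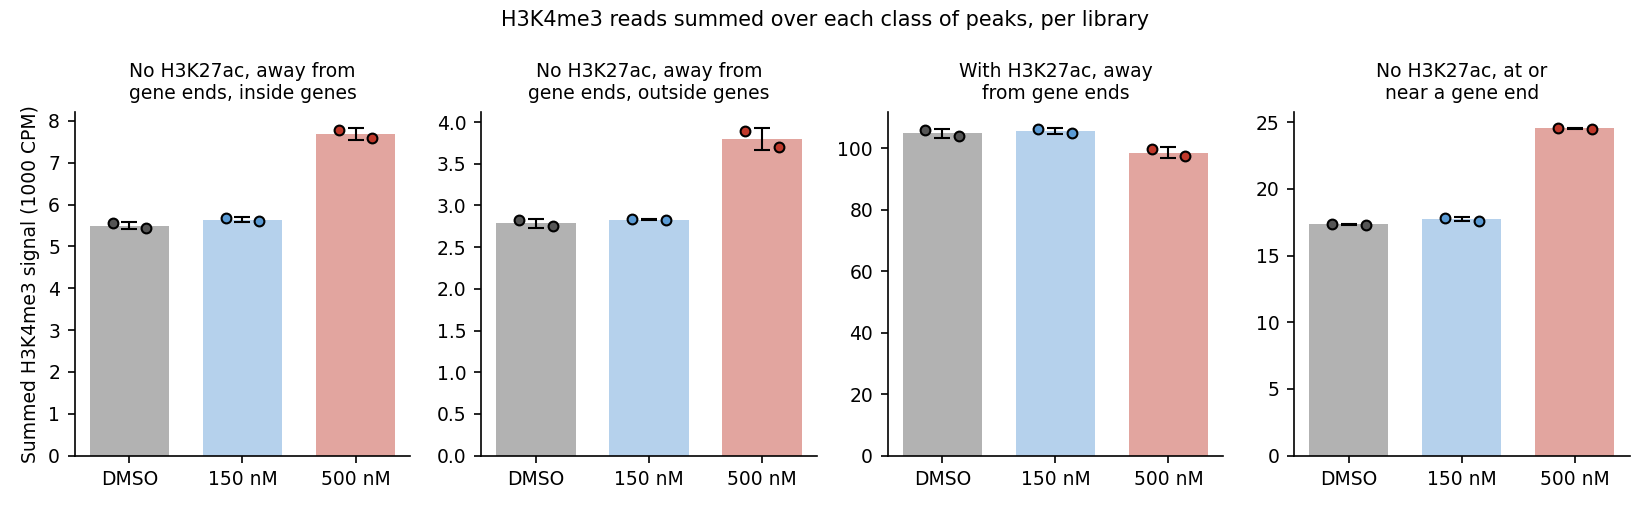
H3K4me3 signal summed over each class of peaks (in units of 1000 CPM, each vertical axis starting at 0), with 1 point per library, bars at the mean of 2 libraries and error bars of 1 SD. Both classes of peaks without H3K27ac away from gene ends are higher at 500 nM than in DMSO or at 150 nM, as are gene-end peaks without H3K27ac, while away peaks with H3K27ac are lower.

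Because calls at 500 nM varied with abundance, all tested peaks were also divided into 5 equal groups by abundance. Over all classes together, 26.1% of the least abundant group were called higher and 4.58% lower, against 4.80% and 34.2% of the most abundant. In group 1, the least abundant, 34.7% of 1223 tested peaks away from gene ends without H3K27ac were called higher and 3.35% lower, against 12.2% and 6.58% of the away peaks with H3K27ac. In group 2 the shares were 47.7% and 3.70% of 730, against 16.2% and 22.1%. In group 3 they were 63.8% and 6.15% of 130, against 21.8% and 33.9%. The median length within group 2 was 854.5 bp without and 955 bp with H3K27ac. Gene-end peaks without H3K27ac had 48.9%, 63.7% and 63.5% called higher in the same 3 groups. Only 5 of the 2450 peaks reached groups 4 and 5. These shares cover tested peaks and carry no test of their own. The tested peaks include the 297 that passed the filter only through the 500 nM libraries, 199 of them called higher. How these divide among the abundance groups was not counted. The direction of the contrast with the away peaks that have H3K27ac was the same with loess offsets, under which 21.5% of the tested peaks without H3K27ac were called higher and 8.91% lower, against 8.76% and 28.3% with it.

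**Figure D2:**
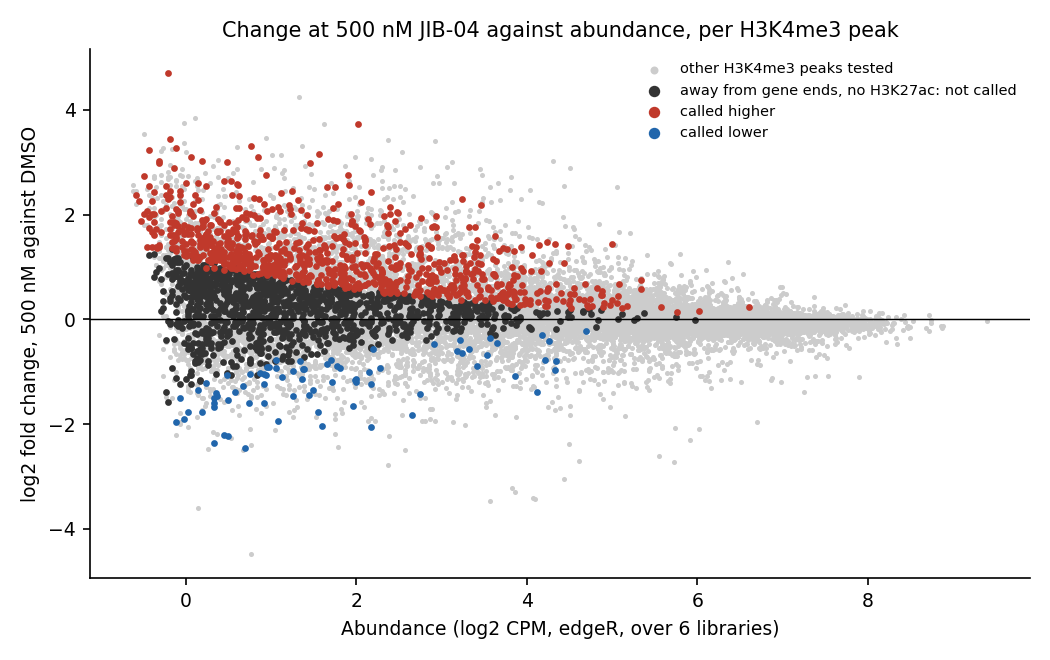
Each point is 1 tested H3K4me3 peak, with abundance (log2 CPM over 6 libraries) on the horizontal axis and the log2 fold change of 500 nM against DMSO on the vertical axis. The peaks away from gene ends without H3K27ac, in black, red (called higher) and blue (called lower), sit at low abundance and mostly above 0, with 858 red and 76 blue points.

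**Figure D3:**
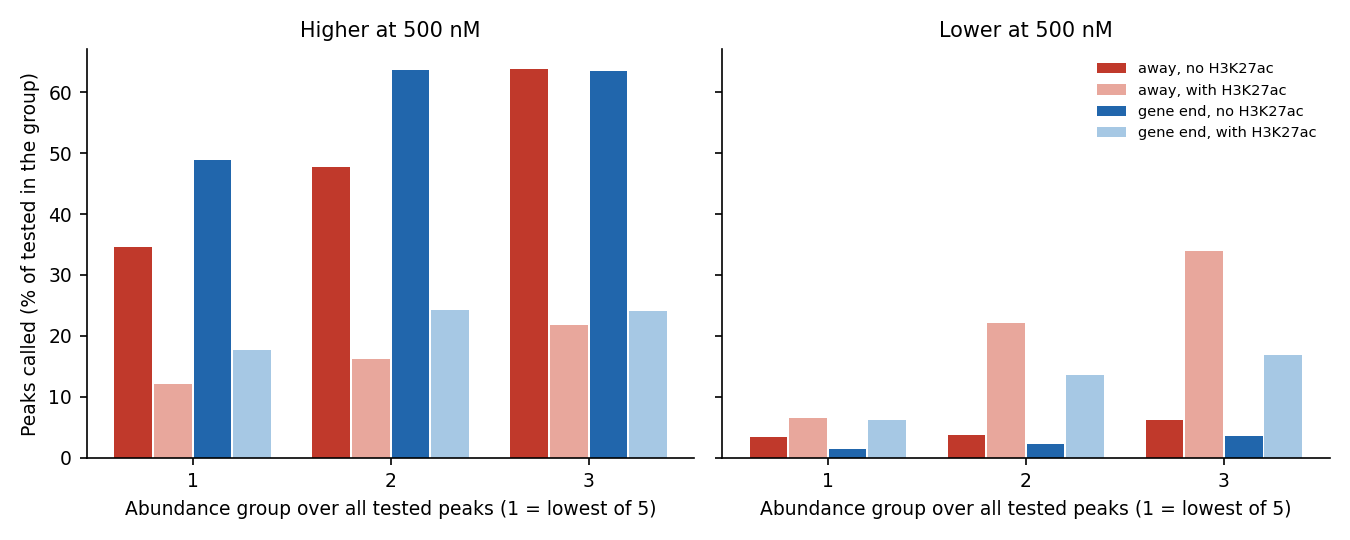
Share of tested peaks called higher (left) or lower (right) at 500 nM in the 3 lowest of 5 abundance groups, by class. In each group the classes without H3K27ac (dark bars) have larger shares called higher and smaller shares called lower than the classes with it (pale bars). Tested peaks include those that passed the filter on low counts only through the 500 nM libraries.

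How far a peak lay from H3K27ac went with its direction. Of the 178 peaks within 1 kb of an H3K27ac peak, 10.7% rose and 5.62% fell. Between 1 and 5 kb the shares were 21.3% and 5.68% of 352, between 5 and 20 kb 39.7% and 2.62% of 572, between 20 and 100 kb 42.5% and 2.34% of 856, and beyond 100 kb 35.2% and 2.24% of 492. The median log2 fold change with no filter climbed through the same bins, from 0.03 through 0.26, 0.55 and 0.69 to 0.75. Peak abundance moved with these bins as well: the median count of tested peaks was 16.8 reads in the nearest bin, 28.2 between 5 and 20 kb and 20.8 in the farthest. Within abundance group 1 the share called higher was 11.6% of 112 tested peaks in the nearest bin and 43.4% of 408 between 20 and 100 kb. Tested peaks include those that passed the filter on low counts only through the libraries of the highest dose. How these divide among the distance bins was not counted, so the shares within group 1 cannot show a gradient free of that filter. By distance to another H3K4me3 peak, 19.2% of the 385 peaks within 1 kb of one rose, and in the farther bins, in the same order, 36.8%, 38.1%, 40.6% and 33.8%.

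**Figure D4:**
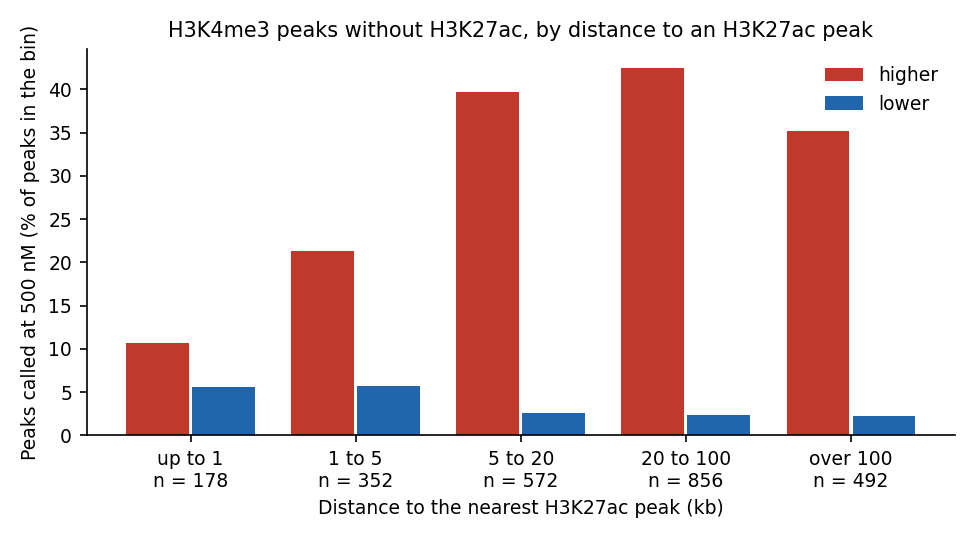
Share of the 2450 peaks called higher (red) or lower (blue) at 500 nM, by distance to the nearest H3K27ac peak in kb, with the number of peaks under each bin. Shares called higher go from 10.7% within 1 kb to 42.5% between 20 and 100 kb and are 35.2% beyond, while shares called lower are 5.62%, 2.34% and 2.24% in those 3 bins.

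Values on either side of the limits that define the class were as follows. Of the 368 peaks lying 1 to 2 kb from a gene end, 36.1% rose. Of the 780 H3K4me3 peaks without H3K27ac that lay just closer, between 1 bp and 1 kb, 41.4% rose, and of the 1464 over a gene end 62.6% rose. In the same order, the median counts were 21.25, 19.8 and 78.9 reads and the median log2 fold changes 0.53, 0.69 and 0.62. The shares called therefore differ in read depth and did not follow the medians. On the acetylation side, 10.7% of the 178 peaks within 1 kb of H3K27ac were called higher and 5.62% lower, and of the 5478 away peaks overlapping H3K27ac 14.02% were called higher and 19.9% lower. Their median counts were 13.6 and 51.4 reads and their median log2 fold changes 0.03 and -0.0065. By distance to gene ends within the class the shares were close up to 100 kb: 35.5% rose between 1 and 5 kb, 36.8% between 5 and 20 kb and 32.6% between 20 and 100 kb. Of the 43 peaks beyond 100 kb, 16.3% rose and 11.6% fell.

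Peaks overlapping a promoter window inside a gene were called higher more often than the rest. Of the 158 such peaks, 96 (60.8%) were called higher and 2 lower, with a median log2 fold change of 0.69. Of the 2292 overlapping none, 762 (33.2%) were called higher and 74 lower, with a median of 0.57. The former were also longer, with a median of 977 bp against 480.5 bp, and better covered, with a median of 53.6 reads against 18.3. Within abundance group 2, 72.5% of 69 tested peaks over a start and 45.1% of 661 others were called higher. Within group 3, 64.9% of 37 and 63.4% of 93 were, so the gap was not seen among the better covered peaks.

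The largest rises inside genes lay in LHX9, SSBP4, DMRTA2, FIGNL2 and KIF7, named by rule as the 5 largest with at least 50 reads on average. The LHX9 peak (chr1:197915617-197916999) held 4.57 and 2.95 CPM in the DMSO libraries, 5.55 and 5.03 at 150 nM, then 18.2 and 19.6 at 500 nM. Every 500 nM value was more than every other, and the log2 fold change was 2.30 ± 0.16 (SE; edgeR adjusted p = 2.47e-18). The peak in KIF7 (chr15:89654531-89655703) held 3.84 and 3.44, then 4.21 and 4.65, then 13.5 and 15.5 CPM, a log2 fold change of 1.98 ± 0.17 (edgeR adjusted p = 8.69e-15). In SSBP4, which encodes a single-stranded DNA-binding protein, the peak (chr19:18416752-18418302) went from 2.04 and 2.55 CPM in DMSO to 9.44 and 10.8 at 500 nM, although an H3K27ac peak lay only 1140 bp away. DMRTA2, a transcription factor gene of the doublesex family, and FIGNL2, a fidgetin-like gene, had log2 fold changes of 2.04 ± 0.21 and 2.03 ± 0.22. In each of the 5 the 500 nM libraries lay above all 4 others. LHX9 and DMRTA2 encode developmental transcription factors, and KIF7 acts in developmental signalling. Developmental genes were not counted over the class, so no theme is drawn from these names.

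Other peaks over internal starts showed the same shape at lower size. The DIXDC1 peak (chr11:111977181-111977922) held 3.76 and 3.73 CPM in DMSO, 6.00 and 5.12 at 150 nM, then 11.9 and 13.99 at 500 nM, a log2 fold change of 1.78 ± 0.18. The GSN peak (chr9:121299248-121300355) held 4.49 and 4.22, then 5.02 and 5.68, then 12.4 and 13.6 CPM, a log2 fold change of 1.57 ± 0.17. In both the 150 nM libraries lay between DMSO and 500 nM without being called. The SATB1 peak (chr3:18423518-18426452), with 62.9 CPM in each DMSO library, 60.9 and 60.7 at 150 nM and 70.1 and 70.5 at 500 nM, changed by 0.16 ± 0.05 (edgeR adjusted p = 0.00918). That call was lost with DESeq2 (adjusted p = 0.203) and without either DMSO replicate 1 (0.0619) or 500 nM replicate 1 (0.0526).

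Outside genes the largest rise was 38193 bp from the nearest gene end, that of LOC124901744, on chromosome 7 (chr7:128166532-128168103). Its levels were 4.57 and 5.21 CPM in DMSO, 5.91 and 5.86 at 150 nM, then 22.9 and 20.9 at 500 nM, a log2 fold change of 2.17 ± 0.14 (edgeR adjusted p = 9.84e-20). The other 4 lay near GPR35, which encodes a G protein-coupled receptor, TAL2, a basic helix-loop-helix transcription factor gene, DUSP8, a MAP kinase phosphatase gene, and KCNG2, a potassium channel subunit gene. The peak near TAL2 (chr9:105656043-105656960, 5497 bp from the gene) held 2.12 and 2.55 CPM in DMSO, 2.78 and 3.54 at 150 nM, then 8.50 and 9.91 at 500 nM. Those near GPR35, DUSP8 and KCNG2 had log2 fold changes of 2.02 ± 0.20, 1.94 ± 0.19 and 1.81 ± 0.21. None of the 10 largest rises lost its call under any alternative fit that included it, and at 150 nM their levels stayed below every 500 nM value.

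Falls were fewer. In TNS3, which encodes the focal adhesion protein tensin 3, the peak (chr7:47540579-47541544) held 8.57 and 6.78 CPM in DMSO, 9.05 and 7.45 at 150 nM, then 1.62 and 2.86 at 500 nM. This is a log2 fold change of -1.82 ± 0.24 (edgeR adjusted p = 3.68e-09). The ANK3 peak (chr10:60387535-60390138), over the start shown above, held 26.2 and 19.4, then 24.5 and 22.3, then 15.05 and 11.3 CPM, a log2 fold change of -0.79 ± 0.12. In PALLD, an actin-associated gene whose body shares this stretch with LOC124900808, the change was -1.09 ± 0.15, and in PIEZO2, a mechanosensitive channel gene, -0.97 ± 0.11. The MSL2 peak, in a gene of the MSL histone acetyltransferase complex, changed by -0.94 ± 0.24, but it lay 190 bp from an H3K27ac peak, and its call was lost with DESeq2 (adjusted p = 0.0546) and without DMSO replicate 1 (edgeR adjusted p = 0.145).

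Outside genes the largest falls lay near EEF1A1P5, a pseudogene, and LINC01754. Near LINC01754 (chr20:47419148-47421727) the levels were 19.8 and 22.003 CPM in DMSO, 22.8 and 22.2 at 150 nM, then 9.69 and 5.72 at 500 nM, a log2 fold change of -1.40 ± 0.13 (edgeR adjusted p = 3.09e-13). The 500 nM libraries differed from each other but lay under all 4 others. Near EEF1A1P5 (chr9:133023138-133023926) the change was -1.43 ± 0.20, near RPS10P10 -0.89 ± 0.15 and near LOC105371411 -0.78 ± 0.12. The fifth, near LINC02999, changed by -0.41 ± 0.11 and lost its call with DESeq2 (adjusted p = 0.0785) and without 500 nM replicate 2 (edgeR adjusted p = 0.0588).

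**Figure D5:**
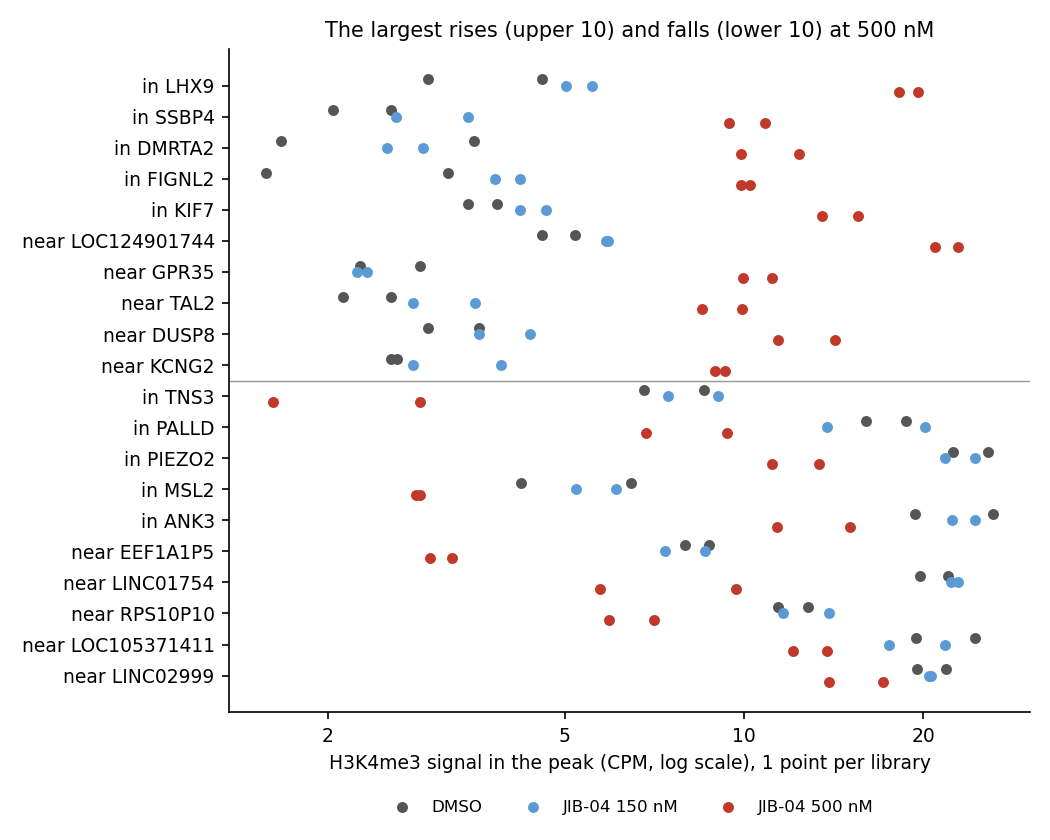
H3K4me3 level in CPM (log scale) in each library for the 5 largest rises and 5 largest falls inside genes ("in") and outside genes ("near" the closest gene). For each of the upper 10 peaks both 500 nM points lie right of the other 4 points, and for each of the lower 10 they lie left of both DMSO points.

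Among the 3 peaks with the highest level per length in each place, changes ran from -0.04 to 0.37 on the log2 scale. Per length, the highest level inside genes was in GATM, which encodes the first enzyme of creatine synthesis, at 29.4 CPM per kb. Its libraries held 52.9 and 52.8 CPM in DMSO, 52.1 and 49.3 at 150 nM, then 57.1 and 59.7 at 500 nM, a log2 fold change of 0.14 ± 0.06 (edgeR adjusted p = 0.0414), which leaving out any 1 library brought past 0.05. The peak in PCNX2, at 29.0 CPM per kb, was not called, with a log2 fold change of 0.12 ± 0.06. The third, in CLVS1, a clavesin gene, was called higher, by 0.37 ± 0.07 (edgeR adjusted p = 3.74e-05). Outside genes the highest were near SLC32A1 (22.3 CPM per kb; log2 fold change 0.13 ± 0.09), near GFPT1 (21.8; 0.23 ± 0.08) and near EIF3FP1 (20.7; -0.04 ± 0.16), and of these 3 only that near GFPT1 was called. That call was lost with DESeq2 or loess offsets and without either DMSO replicate or 500 nM replicate 1. The longest peak inside a gene, 4160 bp in EML6, a microtubule-associated gene, held 61.9 and 62.0 CPM with DMSO and 63.3 and 59.0 at 500 nM, with overlapping groups.

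The 1531 peaks inside genes fell in 1429 genes, since overlapping genes share peaks, and 209 genes held at least 2. Of these, 64 had at least 2 peaks called higher and 4 at least 2 called lower. Opposite calls within a gene occurred in 2: TBC1D22A, which encodes a TBC-domain protein, and PFKFB3, a regulator of glycolysis. In TBC1D22A a weak peak near one end changed by -1.502 ± 0.52 and another, in the interior, by 1.16 ± 0.29, and DESeq2 called neither. The fall was also not called without either DMSO replicate or 500 nM replicate 1. Protein-coding genes held 1281 of the 1531, with 37.0% called higher, and long noncoding RNA genes alone held 212, with 31.1%.

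RPS6KA2, a ribosomal S6 kinase gene, held the most peaks, 7, of which 2 were called higher and none lower. Its strongest (chr6:166627493-166628744) held 16.6 and 17.5 CPM in DMSO, 16.1 in each 150 nM library, and 23.2 and 20.7 at 500 nM, a log2 fold change of 0.38 ± 0.10. Neither of the 2 was called by DESeq2 or without 500 nM replicate 1, and the weaker of them was also lost with loess offsets and without either DMSO replicate. LHX9 held 4 peaks within 13798 bp. Next to the peak described above, the second changed by 1.42 ± 0.19 and the third by 1.17 ± 0.21, while the fourth, the weakest and farthest, changed by 0.36 ± 0.33 and was not called. Peaks so close may share fragments, so they are not independent sites. PIEZO2 held 4 peaks, of which 2 were called lower, at -0.97 and -0.96.

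YTHDC2, an RNA helicase gene that reads N6-methyladenosine, held 5 peaks within 12087 bp, of which 4 were called higher. The strongest of them (chr5:113590847-113591436) held 5.06 and 4.91 CPM in DMSO, 4.75 and 8.75 at 150 nM, then 6.97 and 14.4 at 500 nM. In each of the 5 the second replicate was above the first at both doses, and the 150 nM replicate 2 lay above the 500 nM replicate 1. The doses therefore overlapped here, in contrast to LHX9, and replicate and dose both moved with the level. In LMTK3, a kinase gene, 2 of 4 peaks were called lower, at -0.40 ± 0.16 and -0.91 ± 0.37. YTHDC2, LHX9, PIEZO2 and LMTK3 were singled out after their values were seen, among the 10 genes with at least 4 peaks.

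Peaks of the class were mostly isolated. Joined across gaps of up to 10 kb they formed 2263 groups, of which 2105 held a single peak and 158 held 345 peaks. In 29 of the 158 at least 2 peaks were called higher and in 3 at least 2 lower, and none mixed the directions. The largest group spanned 42639 bp of chromosome 22 (chr22:49351493-49394131) around LOC124905143 and held 8 peaks, each at least 131538 bp from any H3K27ac. It included the longest peak of the whole class, 4788 bp (chr22:49367091-49371878), with 94.7 and 89.0 CPM in DMSO, 92.8 and 91.3 at 150 nM, then 110 and 106 at 500 nM, a log2 fold change of 0.23 ± 0.04. A second (chr22:49379258-49382615) rose from 22.1 and 18.5 to 31.6 and 30.3 CPM, by 0.60 ± 0.09. Of the 8, 4 were called higher, and 2 of these 4 lost the call with DESeq2 and without 500 nM replicate 1. The weaker of these 2, with a mean of 14.2 reads, also lost it with loess offsets and without either DMSO replicate or 500 nM replicate 2. The other 4 changed by -0.06 to 0.33 with DMSO and 500 nM libraries overlapping.

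By gene list, the shares called higher lay near that of the class for the larger lists. Of 23 peaks in zinc finger genes 7 rose and 2 fell, the lowest p being in ZNF423, a transcription factor gene (28.1 ± 3.73 CPM in DMSO, 44.8 ± 1.20 at 500 nM; log2 fold change 0.68 ± 0.07). Of 270 in long intergenic and uncharacterised RNA genes 83 rose and 10 fell, and the median log2 fold change was 0.53 against 0.57 for the class. Of 14 in long neuronal genes 3 rose, among them CNTNAP2, which encodes a neurexin-family adhesion protein (1.39 ± 0.34; not called by DESeq2), and 1 fell. Of the 4 in cadherin genes 3 rose, the lowest p being in the protocadherin gamma cluster (0.84 ± 0.30), where 23 nested gene names share 1 peak. That call was lost with DESeq2 or loess offsets and without DMSO replicate 2 or 500 nM replicate 2. The 875 olfactory receptor genes and the short list of 14 H3K9 methylation and HP1 genes held none.

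Of 38 listed germinal-centre and B cell genes 4 held a peak of the class, and of 37 Jumonji demethylase genes, the drug's target family, 4 did. Over all 59792 RefSeq genes 1429 did. Gene length was not accounted for in these counts. Of 5 peaks in germinal-centre and B cell genes (BCL2, EBF1, IRF8 and POU2F2) 1 rose. It lay in POU2F2, which encodes the B cell transcription factor OCT2, and held 11.4 CPM in each DMSO library, 12.4 and 11.8 at 150 nM, then 17.8 and 18.2 at 500 nM, a log2 fold change of 0.65 ± 0.12. The groups did not overlap. Of 6 peaks in immunoglobulin loci none was called, and that with the lowest p, in IGH, changed by 0.31 ± 0.24. Of 4 in Jumonji demethylase genes (KDM4B, KDM5A, KDM6A and KDM7A) 1 was called higher, in KDM4B, an H3K9 demethylase gene. It rested on a mean of 13.7 reads (1.02 ± 0.41; edgeR adjusted p = 0.039), lay 341 bp from H3K27ac, and lost its call with DESeq2, loess offsets or no filter and without any 1 of DMSO replicate 2, either 150 nM replicate or 500 nM replicate 2.

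At 150 nM none of the 2450 peaks was called with edgeR, and the share called over all tested peaks was also 0%. DESeq2 called none either. Without adjustment 114 peaks had a p under 0.05, which is 5.46% of those tested, against 4.66% over all tested peaks. The median log2 fold change was 0.035. The 2 libraries of each group spread by 0.043 (pooled SD), but on another scale, log2 of CPM with 0.5 added, so the 2 values are not directly comparable. The median level was 3.15 and 3.08 CPM per kb in the DMSO libraries and 3.37 and 3.30 at 150 nM. Both 150 nM libraries thus lay slightly above both DMSO libraries, and this difference was not tested. Peaks that rose most at 500 nM had 150 nM changes of 0.47 (LHX9), 0.40 (SSBP4), 0.01 (DMRTA2), 0.71 (FIGNL2) and 0.28 (KIF7), none of them called.

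Against 150 nM instead of DMSO, 500 nM gave 802 peaks called higher and 102 lower (32.7% and 4.16% of 2450), beside 20.5% and 18.6% over all tested peaks. This comparison shares its 500 nM libraries with that against DMSO, so the likeness of the counts is not a second result. The falls depended on 1 library, with 52 called lower when 150 nM replicate 1 was left out.

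The nearest acetylation showed few changes. Within 10 kb of an H3K27ac peak lay 771 of the 2450 H3K4me3 peaks, with 724 distinct H3K27ac peaks nearest to them. Of the 647 of these that could be tested, edgeR called 3 higher and 1 lower at 500 nM (0.618%), where 0.923% of all tested H3K27ac peaks were called. These 4 were all among the 161 tested that lay nearest to an H3K4me3 peak called higher, of which they make 2.48%, and within 50 kb of such a peak 8 were called higher and 1 lower of 445 (2.02%). Of the 33 tested nearest to an H3K4me3 peak called lower none was called. DESeq2 called none, a fit of only the 4 libraries of this contrast called 20, and without 500 nM replicate 2 there were none. Whether acetylation changed at the H3K4me3 peaks themselves was not measured, because H3K27ac was counted only in its own peaks.

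Across chromosomes the share of these peaks called higher ran from 19.3% of 83 on X to 47.2% of 127 on chromosome 7, and the share called lower was highest on chromosome 20, at 8.86% of 79. The shares over all H3K4me3 peaks of each chromosome were not computed, so this spread is not read as particular to the class. The peak farthest from any gene, 395835 bp from TARDBPP5 on chromosome 6 (chr6:102849901-102850526), lay only 267 bp from an H3K27ac peak. It held 2.04 and 2.36 CPM in DMSO, 2.33 and 1.86 at 150 nM, then 2.13 and 2.55 at 500 nM, with all 3 groups overlapping.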

How the data were processed

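The H3K4me3 and H3K27ac tables hold raw read counts per consensus peak, deposited by the authors with 1 column per library. Per the file headers, featureCounts 2.0.1 counted without strand, let a read count in several peaks and required a fraction of 0.2 of it inside the peak. The headers record the paired option while the labels' protocols give single reads, which leaves unclear if reads or fragments were counted. The submitters' processing notes name GRCh38, Trim Galore 0.6.7, BWA 0.7.17-r1188, Picard 2.27.4, MACS2 2.2.7.1, deepTools 3.5.1 and edgeR 3.42.4, without roles. How peaks became a consensus is not given in the sources used here. A peak called only in 500 nM libraries could enter it, and the effect of that was not tested. The input, H3K9me2 and H3K9me3 libraries were not used here.

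Coordinates are as deposited with 1 added to the start, since the lowest start was 0. Gene ends came from 59792 RefSeq genes of GRCh38.p14, without strand. All rows of a mark entered one fit of its 6 libraries in edgeR 4.0.16 (R 4.3.3): filterByExpr by group with a minimum count of 10, TMM, glmQLFit, glmQLFTest, and Benjamini-Hochberg adjustment over all tested rows at 0.05. Standard errors were derived from the F statistic. CPM is relative to reads in tested peaks after TMM, so a change common to all peaks is not seen. Medians over the class used a fit with no filter. DESeq2 1.42.0, other scalings and filters, loess offsets (limma 3.58.1), a replicate block and leaving out each library were alternatives. The procedure was tested on simulated data. Figures used matplotlib 3.10.9.

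Peaks were named by rule: the 5 largest rises and falls inside and outside genes (adjusted p under 0.05, mean count at least 50, both 500 nM libraries beyond both DMSO libraries), the 3 highest per kb and the longest in each place, any called at 150 nM, the lowest p per gene list, the largest group, the gene with most peaks, and the peak farthest from a gene. The members and lists were chosen with earlier results of these data known. The 150 nM libraries differed by no more than sampling noise (chi-square per degree of freedom 0.928), as did DMSO replicate 1 and 150 nM replicate 1 (0.953), and were kept as 2 samples. No value was left unmapped to a sample.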

Additional observations from a re-analysis of the deposited data

How the results depend on the processing

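For 500 nM against DMSO (858 higher and 76 lower as reported; inside genes 549 and 52, outside 309 and 24), loess offsets gave 449 and 186 (inside 299 and 130, outside 150 and 56), a mean count of at least 50 gave 311 and 17 of 542 peaks (210 and 11, 101 and 6), and DESeq2 350 and 28 (242 and 18, 108 and 10), all of them among those of edgeR. The cause of the loess and DESeq2 differences was not tested, whereas the count minimum tests fewer peaks. Requiring a change of 1 or more (log2) left 514 and 47 (328 and 31, 186 and 16), an adjusted p under 0.01 left 46 lower (30 inside), and peaks more than 5 kb from gene ends gave 528 and 46 (321 and 32 inside, 14 lower outside), which is 34.7% and 3.02% of fewer peaks. Leaving out 1 library gave 615 to 836 higher and 49 to 69 lower (inside 404 to 541 and 32 to 46, outside 208 to 297 and 17 to 23), the fewest lower without DMSO replicate 1. For 500 against 150 nM (802 and 102), the same settings gave 455 and 201, 291 and 19, 330 and 30, 458 and 57, 61 lower, and 492 and 59, with 538 to 810 and 52 to 106 on leaving out 1 library. The median of 0.57 became 0.19 with loess offsets, 0.53 with filterByExpr, 0.42 at a mean count of 50, 0.62 beyond 5 kb, and 0.48 to 0.59 on leaving out 1 library, lowest without 500 nM replicate 1. Called nearest H3K27ac peaks (4) numbered 2 at a mean count of 50, 2 at a log2 fold change of 1, 0 with DESeq2, 20 with the 4 libraries of the contrast, 14 within 50 kb, and 0 to 20 on leaving out 1 library (20 and 19 without either 150 nM replicate). A group left with 1 library was assumed to vary like the others. Scaling by total counts or median-of-ratios factors, no filter, and a 1 kb gap from H3K27ac kept all counts of H3K4me3 calls within 1.5 times, and 150 nM gave 0 calls under all alternatives. Same-numbered H3K4me3 libraries did not deviate together over all tested peaks (correlations of 0.03, 0.06 and 0.01), although in YTHDC2 replicate and dose both moved with the level. Whether same-numbered libraries shared a batch was not tested. With a replicate block 873 peaks were higher and 76 lower, 810 and 104 against 150 nM, and 10 nearest H3K27ac peaks were called. Of 40 named peaks called, 14 lost the call under some alternative and none reversed. The median peak of the class held 19.3 reads, which limits the precision of its change.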
